A study of Homo sapiens with 48 samples.

Results

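The metallothioneins and the genes of the zinc response comprised 9 of the 33892 rows of the count matrix: the metallothioneins MT2A, MT1X, MT1E, MT1F, MT1G, MT1M and MT1A, the transcription factor MTF1 and the zinc exporter SLC30A1. They were picked by gene symbol, with earlier results of these data known. RNA was sequenced from 8 established human cancer cell lines treated for 24 h with carfilzomib, which blocks the proteasome irreversibly, or with DMSO, its solvent. Every line thus had a DMSO group and a carfilzomib group of 3 biological replicates each, which made 16 groups and 48 libraries. By their labels, the lines came from colon cancer (RKO, DLD-1), lung cancer (H-23, H-1299), pancreatic cancer (PANC-1, CAPAN-2) and multiple myeloma (H-929, RPMI). Carfilzomib was given at each line's IC50 for proteasome activity, so the concentration could differ between lines, and the concentrations themselves were not used here. Each line stands for 1 tumour, so a pair of lines does not represent a tumour type. The groups share 1 time point and no second agent or engineered allele is named in the labels.

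Metallothioneins are small, cysteine-rich proteins that bind zinc, copper and cadmium in metal-thiolate clusters and buffer free zinc in the cell. Their transcription rises when free zinc rises: MTF1, the metal-responsive transcription factor, binds zinc through its zinc fingers, enters the nucleus and binds metal response elements in the promoters of the metallothionein genes and of SLC30A1. SLC30A1, also called ZnT1, sits in the plasma membrane and carries zinc out of the cell, so buffering and export are switched on by the same factor. Metallothioneins also respond to glucocorticoids, oxidants and other stresses.

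The promoter sequences are shown because the metal response element is what the pathway is read through. RefSeq promoters on GRCh38.p14 were matched by symbol for 4 of the 9 members, namely MT2A, MT1X, SLC30A1 and MTF1. The 250 bases before the start of each of the 3 genes with a match are printed 5′ to 3′ on the strand of the gene, and capitals mark the 7-base core of the metal response element, TGCACNC or TGCGCNC, on either strand. The MT2A window is chr16:56608334-56608583 on the plus strand, the MT1X window is chr16:56682220-56682469 on the plus strand, and the SLC30A1 window is chr1:211579162-211579411 on the minus strand.
MT2A: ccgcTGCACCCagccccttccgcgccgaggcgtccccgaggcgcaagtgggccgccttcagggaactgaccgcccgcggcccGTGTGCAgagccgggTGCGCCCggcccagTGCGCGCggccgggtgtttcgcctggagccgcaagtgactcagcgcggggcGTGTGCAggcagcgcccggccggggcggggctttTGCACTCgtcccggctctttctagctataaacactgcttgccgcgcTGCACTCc
MT1X: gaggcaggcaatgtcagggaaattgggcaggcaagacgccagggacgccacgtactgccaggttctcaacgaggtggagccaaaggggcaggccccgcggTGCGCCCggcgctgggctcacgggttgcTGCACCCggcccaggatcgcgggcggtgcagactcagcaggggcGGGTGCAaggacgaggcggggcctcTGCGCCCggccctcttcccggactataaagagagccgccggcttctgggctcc
SLC30A1: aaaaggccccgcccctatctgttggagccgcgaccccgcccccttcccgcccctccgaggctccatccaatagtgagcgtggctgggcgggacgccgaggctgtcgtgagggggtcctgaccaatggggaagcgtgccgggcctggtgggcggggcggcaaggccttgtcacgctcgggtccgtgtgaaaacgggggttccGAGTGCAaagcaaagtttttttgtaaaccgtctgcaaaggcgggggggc
Counted from 250 bases before to 50 bases after the start, the MT2A promoter held 8 matches, the MT1X promoter 4, the SLC30A1 promoter 2 and the MTF1 promoter 0. Of the 35116 promoters of the same length, 0.0199% held at least 8 matches, 0.601% held at least 4, 8.6% held at least 2 and 29.6% held at least 1. Among metallothioneins outside the members, MT1H also held 8 matches, and MT1B and MT4 held 3 each. No library held more than 4 counts of any of these genes. In MT2A, 7 of the 8 matches lay before the start, and in SLC30A1 1 of the 2 did. A core of the antioxidant response element, TGACNNNGC on either strand, was found once each in MT2A, MT1X and SLC30A1, against 13.3% of all promoters with at least 1. A core of the heat shock element, GAANNTTC or TTCNNGAA, was found in none of the 4 promoters, against 13.5% of all promoters. The matches are letters in a window and not measured binding. The starts used here are those of RefSeq, and they differ from those of the GENCODE annotation used below. GENCODE starts SLC30A1 at 211578742 on the minus strand, so the whole SLC30A1 window, down to 211579112, lies upstream of that start. Its low count thus does not describe the promoter at the GENCODE start. The MT2A window lies inside the GENCODE gene, which begins at 56608199.

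**Figure D1:**
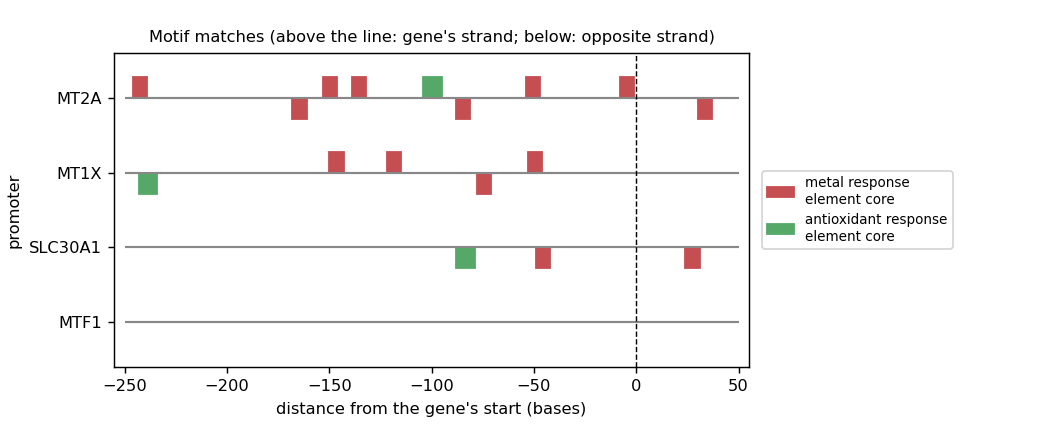
Positions of motif matches in the promoters of 4 genes, with the distance from the gene's RefSeq start in bases on the horizontal axis. Red boxes are cores of the metal response element and green boxes cores of the antioxidant response element, above the line where they lie on the strand of the gene and below it where they lie on the other strand: MT2A carries 8 red boxes, MT1X 4, SLC30A1 2 and MTF1 0.

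The coding sequences of the metallothioneins are shown because they set how well reads can be assigned to 1 gene. In GENCODE 29 each of the 7 coding sequences had 183 bases without the stop codon, and 20 of the 61 codons were TGC or TGT, the codons of cysteine. In the MT2A sequence capitals mark those codons, and in the MT1X and MT1M sequences capitals mark the bases that differ from MT2A.
MT2A: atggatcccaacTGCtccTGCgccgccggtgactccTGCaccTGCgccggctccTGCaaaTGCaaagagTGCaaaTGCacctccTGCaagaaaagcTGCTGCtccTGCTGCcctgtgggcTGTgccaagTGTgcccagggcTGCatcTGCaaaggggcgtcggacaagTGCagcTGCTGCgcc
MT1X: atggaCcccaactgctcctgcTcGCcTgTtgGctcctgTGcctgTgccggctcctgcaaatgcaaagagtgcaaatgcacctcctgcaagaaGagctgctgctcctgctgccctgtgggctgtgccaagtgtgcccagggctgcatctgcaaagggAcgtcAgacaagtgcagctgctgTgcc
MT1M: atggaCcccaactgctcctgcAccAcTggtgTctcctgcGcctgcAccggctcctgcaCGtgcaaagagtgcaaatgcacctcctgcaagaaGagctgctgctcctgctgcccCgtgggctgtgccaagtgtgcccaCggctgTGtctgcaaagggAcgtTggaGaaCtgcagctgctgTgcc
Across the 21 pairs of metallothionein members, identity ran from 88.5% to 95.1%, with a median of 91.8%. MT2A and MT1X were 92.3% identical, with a longest identical run of 63 bases, while MT1X and MT1G shared a run of 96 bases. Reads from such runs can come from several genes, and how the authors' counting treated them is not given in the sources used here, so the split of counts among metallothioneins is uncertain. For that reason the sum over the 7 metallothioneins is given beside the single genes. All 7 lie in 1 cluster on chromosome 16 (GRCh38, GENCODE 29), from MT2A at 56608199 to 56609497 to MT1X at 56682424 to 56684196. MTF1 lies on chromosome 1 at 37809567 to 37859620 and SLC30A1 on chromosome 1 at 211571568 to 211578742, both on the minus strand.

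Library totals ran from 9.12 M to 64.4 M counts, and replicates of a group differed by more than counting noise in each pair. Marker genes of the labelled tissues were read in the DMSO libraries, in CPM, a gene's counts divided by the normalised total of its library in M counts, on 1 scale for the 48 libraries. IRF4, a plasma cell factor, was at 2100 CPM in H-929 and 551 CPM in RPMI and at most 0.293 CPM in the other 6 lines. CDX2, an intestinal factor, was at 20.9 CPM in RKO and 115 CPM in DLD-1. It was also at 12.6 CPM in CAPAN-2, 6 CPM in PANC-1 and 4.93 CPM in H-23. KRT19, a duct keratin, was at 912 CPM in PANC-1 and 2420 CPM in CAPAN-2, though DLD-1 also had 770 CPM. Several defining markers were low or absent. KRT7 was at 1.75 CPM in PANC-1, and LGALS4 was at 0 in both colon lines. KRT19 and CDX1 were at 0 in RKO, and CDH1 was at 0 in H-1299. The lung markers SFTPC, SFTPB and NAPSA were at or below 2.38 CPM in H-23 and 0.921 CPM in H-1299. EPCAM, an epithelial marker, was at 118 CPM in the myeloma line RPMI. It was lower in PANC-1 (34.7 CPM), RKO (7.73 CPM), H-23 (4.29 CPM) and H-1299 (0.188 CPM), and higher in DLD-1 (733 CPM) and CAPAN-2 (936 CPM). NAPSA was highest in the other myeloma line, H-929, at 41.8 CPM. H-929 also had 283 CPM of PECAM1, which plasma cells express as well as endothelium. CD3E, a T cell marker, was at 21.9 CPM in H-929. Their part in the results below was not tested.

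Carfilzomib moved these genes in opposite directions in different lines (heat map of log2 fold changes). MT1X, one of the main metallothioneins, rose in 6 lines and fell in 1. MT2A, the largest source of metallothionein counts in 5 of the lines under DMSO, rose in 3 and fell in 3. MTF1 rose in 4 lines and fell in 0. SLC30A1 rose in 2 and fell in 4. A call means an adjusted p under 0.05 in edgeR's quasi-likelihood test of the 6 libraries of a line, adjusted by Benjamini-Hochberg over all genes of the line. Of the 72 pairs of a member and a line, 49 passed the filter on low counts. Of these 49 tests, 18 (36.7%) were called higher and 12 (24.5%) lower, against 20.8% and 21.1% of the 129977 tests of all genes over the 8 lines.

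The colon lines had 2 called members each and no fall. RKO had 2 members called higher and 0 lower of 7 tested, beside 3.62% of all genes called higher and 5.28% lower, and the median log2 fold change was 0.25 over the tested members against 0.00 over all genes. DLD-1 had 2 higher and 0 lower of 6, beside 10.9% and 12.1%. The lung lines showed mostly falls: H-23 had 1 higher and 3 lower of 7, beside 17.7% and 16.2%, and H-1299 had 1 higher and 3 lower of 4, beside 29.8% and 31.3%. Median log2 fold changes of the tested members were -0.20 in H-23 and -0.94 in H-1299. PANC-1 had 5 higher and 1 lower of 8, beside 20.5% and 18.2%, and CAPAN-2 2 higher and 3 lower of 6, beside 25.7% and 26.7%. H-929 had 3 higher and 0 lower of 5, beside 26.4% and 26.2%, and RPMI 2 higher and 2 lower of 6, beside 31.3% and 32.2%. The members not tested in a line had too few counts there, so these counts describe the tested members and not the whole list. Some counts moved with single libraries: 1 member was called higher in RKO without DMSO replicate 1 or 3 or carfilzomib replicate 2 or 3, 1 lower in H-23 without DMSO replicate 3 or carfilzomib replicate 2, and 1 lower in CAPAN-2 without DMSO replicate 1. In RPMI, 1 was called higher without DMSO replicate 1 or 2 or carfilzomib replicate 2, 0 were without carfilzomib replicate 3, and 1 was called lower without DMSO replicate 2 or 3 or carfilzomib replicate 1 or 3.

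**Figure D2:**
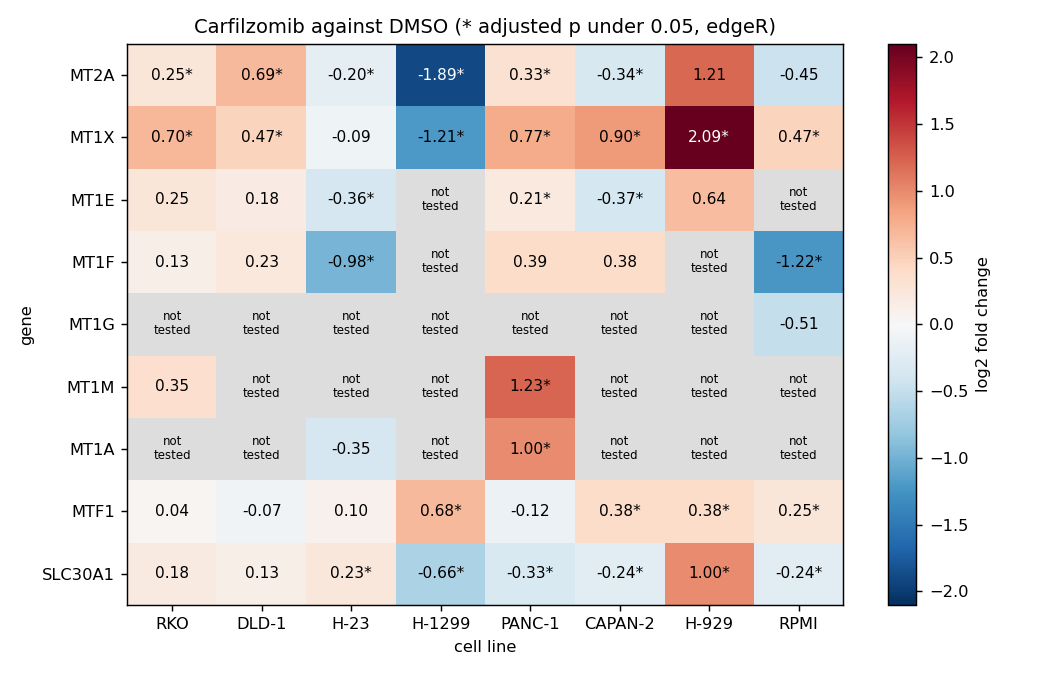
Log2 fold change of carfilzomib against DMSO for each of the 9 genes (rows) in each of the 8 lines (columns), with red for higher, blue for lower and grey for genes with too few counts to test. Asterisks mark an adjusted p under 0.05 in edgeR; the strongest colours are the fall of MT2A by 1.89 in H-1299 and the rise of MT1X by 2.09 in H-929.

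MT2A, the largest single source of metallothionein counts outside the myeloma lines and DLD-1, gave the deepest fall of the 49 tests, in H-1299. There it stood at 76.9, 73.5 and 83.7 CPM in the DMSO libraries and at 17.7, 20.1 and 22.3 CPM in the carfilzomib libraries. The groups were far apart, and the log2 fold change was -1.89 ± 0.08 (SE, n = 3 per group, edgeR adjusted p = 1.42e-09). A lower level in a bulk library does not tell fewer expressing cells from less RNA per cell. Scaling by library totals alone lowered the median of all genes in H-1299 by 0.11 on the log2 scale, which is small beside this fall.

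MT2A also fell, by much less, in H-23 and CAPAN-2. In H-23 the DMSO libraries were at 65.8, 63.9 and 76.5 CPM and the carfilzomib libraries at 60.3, 57.5 and 60.0 CPM, without overlap, a log2 fold change of -0.20 ± 0.06 (edgeR adjusted p = 0.0161). That call was lost without DMSO replicate 3 (-0.13, edgeR adjusted p = 0.095) and without carfilzomib replicate 2 (-0.17, edgeR adjusted p = 0.0531). In CAPAN-2 the DMSO libraries were at 58.3, 56.4 and 43.8 CPM and the carfilzomib libraries at 40.4, 45.4 and 40.97 CPM, so the groups overlapped through DMSO replicate 3. The log2 fold change in CAPAN-2 was -0.34 ± 0.09 (edgeR adjusted p = 0.00739), and without DMSO replicate 1 it was -0.25 and not called (edgeR adjusted p = 0.0583).

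The rises of MT2A were found in DLD-1, PANC-1 and RKO. In DLD-1 the gene went from 51.7, 53.2 and 65.8 CPM to 84.0, 85.3 and 105 CPM, a log2 fold change of 0.69 ± 0.11 (edgeR adjusted p = 0.00114). PANC-1 libraries were at 71.8, 58.8 and 65.2 CPM under DMSO and at 79.5, 77.8 and 87.1 CPM under carfilzomib (0.33 ± 0.07, edgeR adjusted p = 0.00153). In both lines each carfilzomib library lay above each DMSO library. RKO, with the highest level of the 8 lines, went from 465, 553 and 483 CPM to 570, 626 and 585 CPM, also without overlap (0.25 ± 0.06, edgeR adjusted p = 0.0288). The RKO call was the least firm: it was lost without DMSO replicate 1, DMSO replicate 3, carfilzomib replicate 2 or carfilzomib replicate 3 (log2 fold changes of 0.21, 0.21, 0.21 and 0.26, edgeR adjusted p = 0.0814, 0.109, 0.126 and 0.0892).

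In the myeloma lines MT2A was near the limit of what these depths can measure. H-929 libraries held 21, 39 and 10 counts under DMSO and 46, 15 and 28 counts under carfilzomib, or 1.29, 2.29 and 0.727 CPM against 4.50, 1.56 and 2.92 CPM. The groups overlapped and the log2 fold change of 1.21 ± 0.50 was not called (edgeR adjusted p = 0.0554), though it was called without DMSO replicate 2 (1.69, edgeR adjusted p = 0.0285) and without carfilzomib replicate 2 (1.49, edgeR adjusted p = 0.0253). RPMI libraries were at 1.16, 1.47 and 2.47 CPM under DMSO and at 1.87, 1.10 and 0.667 CPM under carfilzomib, with overlapping groups and no call (-0.45 ± 0.40, edgeR adjusted p = 0.344).

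**Figure D3:**
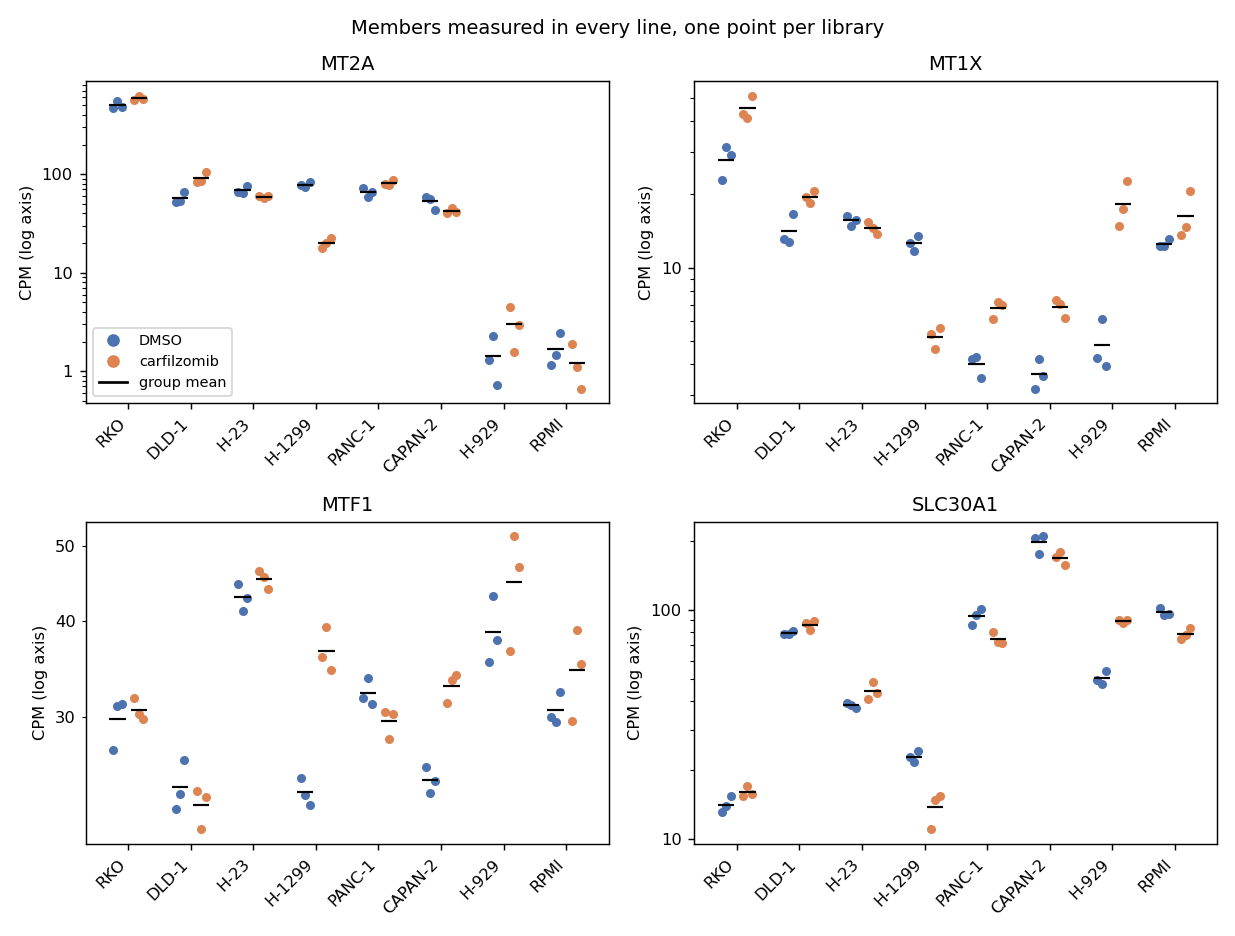
Levels of MT2A, MT1X, MTF1 and SLC30A1 in CPM on a logarithmic axis, with 1 point per library, blue for DMSO, orange for carfilzomib and a black bar for the mean of each group of 3. MT2A falls from a mean of 78.0 CPM in H-1299 DMSO libraries and lies at or below 4.50 CPM in both myeloma lines, and SLC30A1 rises in H-929 from a mean of 50.3 CPM to between 88.2 and 90.4 CPM.

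MT1X, another widely expressed metallothionein, rose in 6 of the 8 lines. The largest rise was in H-929, where it went from 4.25, 6.16 and 3.93 CPM to 14.8, 17.4 and 22.7 CPM, a log2 fold change of 2.09 ± 0.24 (edgeR adjusted p = 4.77e-06). CAPAN-2 followed with 3.18, 4.22 and 3.59 CPM under DMSO and 7.36, 7.10 and 6.18 CPM under carfilzomib (0.90 ± 0.16, edgeR adjusted p = 0.000234). PANC-1, the other pancreatic line, went from 4.22, 4.27 and 3.51 CPM to 6.15, 7.197 and 7.04 CPM (0.77 ± 0.13, edgeR adjusted p = 0.000347). No DMSO library reached the level of a carfilzomib library in these 3 lines.

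Smaller rises of MT1X were seen in RKO, DLD-1 and RPMI. RKO went from 22.9, 31.5 and 29.01 CPM to 43.04, 41.5 and 51.0 CPM (0.70 ± 0.11, edgeR adjusted p = 0.00181). DLD-1 went from 13.2, 12.7 and 16.6 CPM to 19.6, 18.5 and 20.6 CPM (0.47 ± 0.11, edgeR adjusted p = 0.00891). RPMI libraries were at 12.2, 12.3 and 13.1 CPM under DMSO and at 13.7, 14.7 and 20.8 CPM under carfilzomib (0.47 ± 0.14, edgeR adjusted p = 0.012). The groups did not overlap in any of the 3 lines, but carfilzomib replicate 3 carried much of the rise in RPMI: without it the log2 fold change was 0.26 and not called (edgeR adjusted p = 0.0746).

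In the lung lines MT1X did not rise. H-1299 fell from 12.6, 11.7 and 13.5 CPM to 5.35, 4.62 and 5.63 CPM, with a log2 fold change of -1.21 ± 0.12 (edgeR adjusted p = 1.67e-06). H-23 was at 16.4, 14.9 and 15.7 CPM under DMSO and at 15.4, 14.5 and 13.7 CPM under carfilzomib. These groups overlapped, and the difference of -0.09 ± 0.08 was not called (edgeR adjusted p = 0.411).

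The counts of the 7 metallothioneins were also summed, which depends less on how reads from shared stretches were split. The sum was higher in every carfilzomib library than in any DMSO library in RKO, DLD-1, PANC-1 and H-929, and lower in every one in H-23 and H-1299, while the groups overlapped in CAPAN-2 and RPMI. In H-1299 it went from 90.6 ± 6.05 CPM (SD, n = 3) to 25.2 ± 2.45 CPM, 0.278 times the DMSO mean. In H-929 it went from 11.6 ± 2.69 CPM to 29.9 ± 3.70 CPM, 2.58 times the DMSO mean. RKO moved from 607 ± 59.9 CPM to 734 ± 38.8 CPM (1.21 times), DLD-1 from 133 ± 22.1 CPM to 180 ± 14.1 CPM (1.36 times) and PANC-1 from 95.1 ± 8.59 CPM to 123 ± 5.70 CPM (1.29 times). H-23 moved from 136 ± 6.52 CPM to 113 ± 1.29 CPM (0.831 times). The remaining means were 73.2 and 63.9 CPM in CAPAN-2 and 17.8 and 19.3 CPM in RPMI. No test was made of the sum, since it is a score over chosen genes.

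MT2A made up most of the sum in H-1299, where it held 86.1 ± 0.158% (SD, n = 3) of the DMSO sum and 79.3 ± 2.30% under carfilzomib, with MT1X as the rest. In RPMI MT1X held the larger part, 70.7 ± 2.64% of the DMSO sum and 84.6 ± 6.41% under carfilzomib. In H-929 under DMSO, MT1X (41.5 ± 6.80%) and MT1E (39.1 ± 12.8%) held shares within each other's spread, and under carfilzomib MT1X held 60.6 ± 5.74% and MT1E 21.3 ± 4.31%. MT1E held 44.3 ± 2.25% of the DMSO sum in DLD-1, beside 43.04 ± 2.20% for MT2A.

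Set against MT2A in the same library, MT1X took a larger part under carfilzomib in 4 lines, a comparison chosen after the values were seen and given with no test. In CAPAN-2 there were 0.0545 to 0.0820 MT1X counts per MT2A count under DMSO and 0.151 to 0.182 under carfilzomib. H-1299 moved from between 0.159 and 0.164 to between 0.230 and 0.302, so the deeper fall of MT2A there shows in each library. RKO moved from between 0.0493 and 0.0601 to between 0.0663 and 0.0872, and PANC-1 from between 0.0539 and 0.0727 to between 0.0773 and 0.0925. DLD-1 went the other way, from between 0.239 and 0.255 to between 0.197 and 0.234. In H-23, H-929 and RPMI the groups overlapped.

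**Figure D4:**
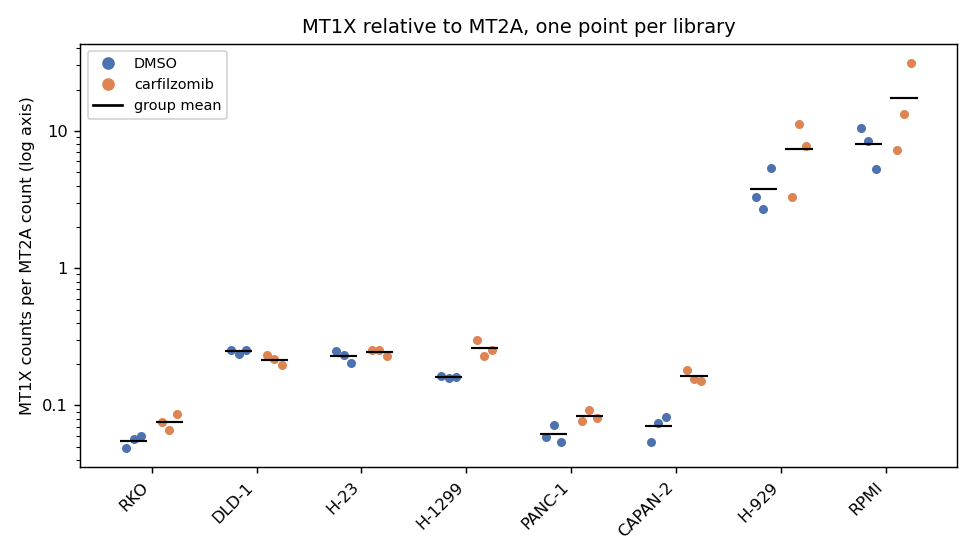
MT1X counts per MT2A count in each library on a logarithmic axis, with blue points for DMSO, orange points for carfilzomib and black bars for group means of 3 libraries. The orange points lie above the blue points in RKO, H-1299, PANC-1 and CAPAN-2 and below them in DLD-1, and the myeloma lines lie above 2 MT1X counts per MT2A count.

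The other 5 metallothionein members were detected in fewer lines. MT1E, a metallothionein 1 isoform, fell in H-23 from 47.6, 46.5 and 45.3 CPM to 34.3, 36.6 and 35.8 CPM (-0.36 ± 0.05, edgeR adjusted p = 4.16e-05). It also fell in CAPAN-2, from 12.5, 14.7 and 13.7 CPM to 9.88, 11.04 and 11.2 CPM (-0.37 ± 0.10, edgeR adjusted p = 0.00759). Neither pair of groups overlapped, though the CAPAN-2 call was lost in a joint fit of the 48 libraries (-0.35, edgeR adjusted p = 0.0603). In PANC-1 the gene was called higher, from 21.3, 17.7 and 20.6 CPM to 21.2, 23.3 and 23.9 CPM, but the groups overlapped (0.21 ± 0.07, edgeR adjusted p = 0.0411). That call was lost without DMSO replicate 2, DMSO replicate 3, carfilzomib replicate 2 or carfilzomib replicate 3 (edgeR adjusted p = 0.202, 0.0617, 0.116 and 0.156). MT1E was not called in RKO (0.25, edgeR adjusted p = 0.175), DLD-1 (0.18, edgeR adjusted p = 0.313) or H-929 (0.64, edgeR adjusted p = 0.125). Leaving out 1 library gave a call in DLD-1, without DMSO replicate 3 (0.36, edgeR adjusted p = 0.00118), and in H-929, without DMSO replicate 1 (1.02, edgeR adjusted p = 0.0315). H-1299 had 0 counts of MT1E in its 6 libraries, which allows up to 0.0218 CPM under DMSO and 0.0379 CPM under carfilzomib. These limits take 3 counts over a group and cover counting error only. RPMI held at most 15 counts in a library and was not tested.

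MT1F was measured at low levels, at most 4.08 CPM in any library. It fell in H-23, from 0.919, 0.715 and 1.03 CPM to 0.309, 0.435 and 0.556 CPM (-0.98 ± 0.31, edgeR adjusted p = 0.0243). In RPMI it fell from 0.644, 0.874 and 1.12 CPM to 0.351, 0.452 and 0.286 CPM (-1.22 ± 0.44, edgeR adjusted p = 0.0254). The groups did not overlap in either line, yet both calls rested on few counts, 7 to 62 per library in H-23 and 6 to 36 in RPMI. The H-23 call was lost without DMSO replicate 1, DMSO replicate 3, carfilzomib replicate 1 or carfilzomib replicate 2 (edgeR adjusted p = 0.0669, 0.109, 0.0621 and 0.0618). In RPMI it was lost without DMSO replicate 2, DMSO replicate 3, carfilzomib replicate 1 or carfilzomib replicate 3 (edgeR adjusted p = 0.064, 0.137, 0.0603 and 0.0799). MT1F was not called in RKO, DLD-1, PANC-1 or CAPAN-2, with log2 fold changes of 0.13, 0.23, 0.39 and 0.38. H-929 was not tested and H-1299 had 0 counts.

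MT1A and MT1M, further metallothionein 1 isoforms, rose in PANC-1. MT1A went from 5.42, 4.74 and 5.56 CPM to 11.3, 10.3 and 9.66 CPM there (1.00 ± 0.11, edgeR adjusted p = 1.11e-05). MT1M went from 0.425, 0.404 and 0.327 CPM to 0.817, 0.847 and 1.04 CPM (1.23 ± 0.29, edgeR adjusted p = 0.00418). Both genes had every carfilzomib library above every DMSO library, and PANC-1 was the line with the most members called higher. MT1A in H-23 was not called (-0.35 ± 0.17, edgeR adjusted p = 0.136), and neither was MT1M in RKO (0.35 ± 0.19, edgeR adjusted p = 0.3).

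In H-929 both isoforms appeared where DMSO libraries had none, below the filter for testing. MT1M had 0 counts in the 3 DMSO libraries and 7, 13 and 7 counts in the carfilzomib libraries, at least 14.4-fold higher than the limit of 0.0638 CPM that 3 counts over the DMSO group set. MT1A had 0 counts under DMSO and 6, 5 and 4 counts under carfilzomib, at least 7.99-fold higher than the same limit. Reads shared with MT1X, which rose in H-929, could not be told apart from reads of both isoforms. Other rows of H-929 gained counts in the same way. Of the 10605 rows at 0 in its DMSO libraries, 313 (2.95%) had counts in all 3 carfilzomib libraries and at least 15 in sum. Of the 7841 rows at 0 in its carfilzomib libraries, 18 (0.23%) met the same rule under DMSO. The 15 is the sum of MT1A, and this comparison was added after the values were seen. RPMI, the other myeloma line, showed the opposite for MT1A at equally low counts, with 10, 12 and 20 counts under DMSO and 1, 3 and 0 counts under carfilzomib. MT1G, a metallothionein 1 isoform, was tested in RPMI alone, where its 1.48, 1.79 and 1.44 CPM under DMSO and 1.40, 0.602 and 1.14 CPM under carfilzomib did not give a call (-0.51 ± 0.35, edgeR adjusted p = 0.228). In the other 7 lines no library held more than 9 counts of MT1G.

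MTF1, the factor that drives metallothionein and SLC30A1 transcription, rose in 4 lines. The largest rise was in H-1299, the line in which its known targets MT2A, MT1X and SLC30A1 fell: MTF1 went from 25.03, 23.8 and 23.1 CPM to 35.9, 39.2 and 34.6 CPM (0.68 ± 0.07, edgeR adjusted p = 1.67e-06). CAPAN-2 went from 25.8, 23.9 and 24.8 CPM to 31.3, 33.5 and 34.02 CPM (0.38 ± 0.07, edgeR adjusted p = 0.000216). In both lines the groups were apart. H-929 libraries were at 35.4, 43.1 and 37.7 CPM under DMSO and at 36.5, 51.5 and 46.98 CPM under carfilzomib (0.38 ± 0.14, edgeR adjusted p = 0.0299), and RPMI libraries at 30.03, 29.6 and 32.3 CPM and at 29.7, 38.9 and 35.2 CPM (0.25 ± 0.09, edgeR adjusted p = 0.0267). Groups overlapped in both myeloma lines, and both calls depended on single libraries, being lost when certain ones were left out. In H-929 this held for DMSO replicate 1, DMSO replicate 3, carfilzomib replicate 2 and carfilzomib replicate 3 (edgeR adjusted p = 0.131, 0.0842, 0.18 and 0.107). In RPMI it held for DMSO replicate 1, DMSO replicate 2, carfilzomib replicate 2 and carfilzomib replicate 3 (edgeR adjusted p = 0.0544, 0.0978, 0.152 and 0.0676). MTF1 was not called in RKO (0.04), DLD-1 (-0.07), H-23 (0.10, edgeR adjusted p = 0.143) or PANC-1 (-0.12, edgeR adjusted p = 0.108). RNA levels say nothing of where the MTF1 protein is or how much zinc it binds.

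SLC30A1, the zinc exporter of the plasma membrane, rose in H-929 and H-23. In H-929 it went from 49.6, 47.4 and 53.9 CPM to 90.4, 88.2 and 90.4 CPM, with little spread in either group (1.00 ± 0.09, edgeR adjusted p = 7.41e-07). In H-23 it went from 39.4, 38.5 and 37.5 CPM to 41.1, 48.4 and 43.7 CPM (0.23 ± 0.06, edgeR adjusted p = 0.00479). Both rises left no overlap between the groups. H-929 was thus a line in which MT1X and SLC30A1 rose together, whereas in H-23 the exporter rose while MT2A and MT1E fell.

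SLC30A1 fell in H-1299, PANC-1, RPMI and CAPAN-2. The deepest fall was in H-1299, from 22.8, 21.7 and 24.2 CPM to 11.1, 14.8 and 15.5 CPM (-0.66 ± 0.11, edgeR adjusted p = 0.000234). PANC-1 went from 86.1, 95.4 and 101.3 CPM to 80.4, 72.3 and 71.9 CPM (-0.33 ± 0.06, edgeR adjusted p = 0.000551), while MT2A, MT1X, MT1E, MT1M and MT1A, 5 of the 7 metallothioneins, were called higher there. RPMI went from 102, 94.8 and 96.2 CPM to 74.4, 77.5 and 83.4 CPM (-0.24 ± 0.06, edgeR adjusted p = 0.00381). In these 3 lines the groups did not overlap. CAPAN-2 libraries were at 206, 176 and 209 CPM under DMSO and at 170, 178 and 158 CPM under carfilzomib, with overlap (-0.24 ± 0.07, edgeR adjusted p = 0.01), and the call was lost without DMSO replicate 1 (-0.20, edgeR adjusted p = 0.0555) or carfilzomib replicate 3 (-0.20, edgeR adjusted p = 0.0583). RKO (0.18, edgeR adjusted p = 0.376) and DLD-1 (0.13, edgeR adjusted p = 0.0938) were not called.

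A joint fit of the 48 libraries gave an average response and a test of whether the lines differed. It is reported for MT2A, MT1X, MTF1 and SLC30A1, which had counts in each of the 16 groups. On average over the 8 lines MT1X was higher by 0.47 ± 0.05 (SE, edgeR adjusted p = 3.34e-10) and MTF1 by 0.16 ± 0.03 (edgeR adjusted p = 1.12e-05), beside 19.8% of all genes called higher and 24% called lower. MT2A (-0.11 ± 0.08, edgeR adjusted p = 0.314) and SLC30A1 (-0.03 ± 0.03, edgeR adjusted p = 0.425) were not called on average. Their averages depended on the lines included: MT2A was called lower without DLD-1 (-0.22, edgeR adjusted p = 0.0306) or without H-929 (-0.27, edgeR adjusted p = 0.000445), and SLC30A1 without H-929 (-0.16, edgeR adjusted p = 2.34e-05). The error of these averages is the spread between replicates within groups. With the 8 lines as the units, in limma, neither average was called (MT1X 0.51, adjusted p = 0.277, and MTF1 0.21, adjusted p = 0.246).

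The response of each of these 4 genes differed between the lines, as did that of 67.5% of all genes. The test that the 8 responses are equal gave edgeR adjusted p = 2.11e-16 for MT2A, 2.61e-14 for MT1X, 1.72e-14 for SLC30A1 and 4.25e-06 for MTF1. Within tumour types, the MT2A response of the lung lines was lower by 1.75 ± 0.17 in H-1299 than in H-23 (log2 difference -1.75, edgeR adjusted p = 2.07e-11). In that contrast 30.7% of all genes were called. MT1X (-1.17 ± 0.21, edgeR adjusted p = 1.52e-05) and SLC30A1 (-0.94 ± 0.12, edgeR adjusted p = 8.62e-09) responded lower in H-1299 too, and MTF1 responded higher (0.53 ± 0.12, edgeR adjusted p = 0.000266).

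The myeloma lines also differed, with 40.5% of all genes called. Relative to RPMI, H-929 responded higher in MT2A (1.66 ± 0.56, edgeR adjusted p = 0.0144), MT1X (1.54 ± 0.23, edgeR adjusted p = 2.91e-07) and SLC30A1 (1.15 ± 0.11, edgeR adjusted p = 7.28e-12). For MTF1 the difference was 0.04 ± 0.13 and not called (edgeR adjusted p = 0.894). Between the pancreatic lines, with 24.9% of all genes called, CAPAN-2 responded lower than PANC-1 in MT2A (-0.64 ± 0.16, edgeR adjusted p = 0.00226) and higher in MTF1 (0.53 ± 0.12, edgeR adjusted p = 0.000576), while MT1X (0.15 ± 0.23, edgeR adjusted p = 0.751) and SLC30A1 (0.11 ± 0.10, edgeR adjusted p = 0.512) were not called. The colon lines, with 4.07% of all genes called, gave no call for MT2A (-0.44 ± 0.16, edgeR adjusted p = 0.116), MT1X (0.23 ± 0.20), MTF1 (0.11 ± 0.13) or SLC30A1 (0.05 ± 0.13).

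Before treatment the lines differed widely in metallothionein level, more so in MT2A than in MTF1. MT2A was at 500 ± 46.5 CPM (SD, n = 3) in RKO, above all other lines. H-1299 (78.0 CPM), H-23 (68.7 CPM), PANC-1 (65.2 CPM), DLD-1 (56.9 CPM) and CAPAN-2 (52.8 CPM) followed, with libraries that overlapped between each neighbouring pair. RPMI (1.70 CPM) and H-929 (1.44 CPM) came last and overlapped each other. The DMSO level differed between lines in 97.5% of all genes, and the same test gave edgeR adjusted p = 1.39e-39 for MT2A.

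MT1X spanned a smaller range before treatment, from 27.8 ± 4.40 CPM in RKO to 3.66 ± 0.527 CPM in CAPAN-2. H-23 (15.7 CPM), DLD-1 (14.2 CPM), H-1299 (12.6 CPM) and RPMI (12.5 CPM) overlapped from neighbour to neighbour, as did H-929 (4.78 CPM), PANC-1 (4.0 CPM) and CAPAN-2. Per kilobase of exon, MT1X was at 7.07 ± 0.256 CPM per kb in RPMI and MT2A at 1.31 ± 0.527 CPM per kb, the reverse of RKO, where MT2A was at 385 ± 35.8 and MT1X at 15.7 ± 2.48 CPM per kb. MT1E was highest in RKO (69.5 CPM) and DLD-1 (59.0 CPM), which overlapped, then H-23 (46.5 CPM), PANC-1 (19.9 CPM), CAPAN-2 (13.6 CPM), H-929 (4.58 CPM) and RPMI (0.487 CPM), without overlap between neighbours. MT1F was highest in CAPAN-2 (2.82 CPM), DLD-1 (2.56 CPM) and RKO (2.30 CPM), and MT1M in RKO (7.46 CPM). MT1A was at 5.24 CPM in PANC-1 and 4.67 CPM in H-23 and at or below 0.582 CPM elsewhere, and MT1G was at 1.57 CPM in RPMI and at or below 0.0710 CPM elsewhere.

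The exporter followed another order. SLC30A1 was highest in CAPAN-2 (197 ± 18.4 CPM) and lowest in RKO (14.2 ± 1.14 CPM), the line with the most metallothionein RNA. RPMI (97.7 CPM) and PANC-1 (94.3 CPM) overlapped, and DLD-1 (79.4 CPM), H-929 (50.3 CPM), H-23 (38.5 CPM) and H-1299 (22.9 CPM) each stood apart from their neighbours. Of the 4 genes with counts in every group, MTF1 varied least, from 42.9 ± 1.75 CPM in H-23 to 24.0 ± 1.00 CPM in H-1299.

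Further metallothionein genes and pseudogenes gave few counts, except for MT1L. MT1L, annotated in GENCODE 29 as a transcribed pseudogene, rose in RKO from a mean of 112 CPM to 168 CPM (0.59 ± 0.06, edgeR adjusted p = 6.28e-05) and in PANC-1 from 30.3 to 34.2 CPM (0.18 ± 0.07, edgeR adjusted p = 0.0494). It fell in H-23 from 11.9 to 7.32 CPM (-0.69 ± 0.12, edgeR adjusted p = 0.00061) and in CAPAN-2 from 1.03 to 0.548 CPM (-0.91 ± 0.35, edgeR adjusted p = 0.0396). The groups overlapped in PANC-1, and the CAPAN-2 call rested on 10 to 40 counts per library. These 4 directions are those of MT2A in the same lines, and reads shared with the coding genes could not be told apart. MT1DP, a pseudogene, was tested in H-23 (-0.38, edgeR adjusted p = 0.368) and PANC-1 (0.48, edgeR adjusted p = 0.475) and not called. No library held more than 2 counts of MT1B, 4 of MT1H, 7 of MT1HL1, 6 of MT1JP, 7 of MT3, the neuronal isoform, or 1 of MT4, the isoform of stratified epithelium.

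Among the other genes of zinc handling, the importers of the SLC39 family, which carry zinc into the cytosol, fell more often than they rose. Over the 14 importers and 8 lines, 83 tests gave 12 rises (14.5%) and 36 falls (43.4%), beside 20.8% and 21.1% over all genes. H-1299, PANC-1, CAPAN-2, H-929 and RPMI had 6 or 7 of the falls each, and in these lines 18.2% to 32.2% of all genes were called lower. SLC39A10, a plasma membrane importer whose transcription MTF1 represses in mouse liver, fell in 6 lines and rose in 0, from -0.22 in H-23 to -1.61 ± 0.08 in RPMI (137 to 42.4 CPM, edgeR adjusted p = 1.46e-09), with an average of -0.49 ± 0.03. SLC39A3 fell in the same number of lines, down to -1.11 ± 0.08 in RPMI, where it went from 64.3 to 28.1 CPM (edgeR adjusted p = 2.95e-08). SLC39A6 and SLC39A14 each fell in 5 lines and had rises elsewhere: SLC39A6 rose in H-23 (0.18) and H-1299 (0.36) and SLC39A14 in H-23 (0.13). Their deepest falls were in H-929, by 1.12 and 1.24 on the log2 scale. SLC39A4 and SLC39A7 share their identifiers with other rows of the matrix and are uncertain. The SLC39A7 row used held 0 counts in every library, so it gave none of the 83 tests. With the rows of an identifier summed, SLC39A4 was called higher in RKO (1.645, edgeR adjusted p = 0.0187). SLC39A7 was then called higher in PANC-1 (5.11, edgeR adjusted p = 0.0133), and neither gene was called in another line.

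The zinc exporters besides SLC30A1 had 13 rises (26.5%) and 13 falls (26.5%) in 49 tests, near the 20.8% and 21.1% of all genes. SLC30A9, a mitochondrial zinc transporter, fell in 5 lines and rose in CAPAN-2 (0.34), with its deepest fall in H-929 (-0.83 ± 0.10, edgeR adjusted p = 5.44e-06). SLC30A6, a zinc transporter of the secretory pathway, had the largest average of the exporters (0.28 ± 0.03), with rises in 4 lines up to 0.98 in RPMI.

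Copper, the other metal that metallothioneins bind, was covered by 12 genes, with 25 rises (26%) and 18 falls (18.8%) in 96 tests, near the 20.8% and 21.1% of all genes. SOD1, the copper and zinc superoxide dismutase, rose in 7 lines, most in CAPAN-2 from 118 to 409 CPM (1.77 ± 0.08, edgeR adjusted p = 2.27e-10), and was at -0.15 in RKO without a call (edgeR adjusted p = 0.138). CCS, the chaperone that loads copper onto SOD1, rose in 6 lines by 0.22 to 0.76.

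Of 5 genes known to depend on MTF1 in mouse liver, 40 tests gave 16 rises (40%) and 17 falls (42.5%), beside 20.8% and 21.1% of all genes. GCLC, the catalytic subunit of the enzyme that limits glutathione synthesis, rose in 6 lines, most in H-929 (0.93 ± 0.15, edgeR adjusted p = 0.000104), and fell in DLD-1 (-0.23). NDRG1, a stress-induced gene, rose in 6 lines and fell in RKO (-0.34) and H-929 (-0.37). In H-1299, where MT2A, MT1X and SLC30A1 fell, GCLC (0.66) and NDRG1 (1.77) rose and the other 3 of the list, CSRP1 (-0.74), SELENOH (-0.52) and SLC39A10 (-0.26), fell. CSRP1 and SELENOH were named here after their values were seen. SLC39A10, which MTF1 represses in mouse liver, belongs to this list as well as to the importers and gave 6 of the 17 falls. The list thus mixes directions, and its shares give no direction of MTF1 activity.

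Across the 8 lines, the log2 fold changes of MT2A had a Pearson correlation of 0.873 with those of MT1X and 0.808 with those of SLC30A1, and MT1X and SLC30A1 had 0.745. MTF1 had negative correlations with MT2A (-0.622), MT1X (-0.294) and SLC30A1 (-0.193). These describe 8 points from shared libraries, in which H-1299 and H-929 are the extremes for MT2A, MT1X and SLC30A1. Among 11618 genes tested in all 8 lines, the 5 outside the members whose log2 fold changes were most like those of MT2A by Pearson correlation were SMIM4 (0.989), MHENCR (0.978), BCL9L (0.978), NR1H3 (0.977) and ZBTB42 (0.977). By Spearman correlation 1 of these 5, ZBTB42, was again among the closest 5. These are the highest of 11618 correlations over 8 points, and shared regulation was not tested. The MT2A changes in both myeloma lines rest on few counts and were not called.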

How the data were processed

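The authors deposited raw read counts as 1 matrix (33892 gene rows, 48 libraries). Per the labels' protocols the libraries were stranded total RNA libraries. The submitters' processing notes name hg38, bcl2fastq 2.19, FastQC, Trimmomatic, HISAT2 and DESeq2. The counting program, its annotation, its treatment of reads that fit several genes and its use of strand are not given in the sources used here.

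Each line's 6 libraries were tested with edgeR 4.0.16 (quasi-likelihood, TMM, filterByExpr) in R 4.3.3, with Benjamini-Hochberg adjustment over all genes and a threshold of 0.05. A joint fit of 48 libraries with trended dispersion gave averages, differences between lines and the CPM scale (library totals times TMM factors). Groups came from the labels, no test used the replicate numbers as pairs, and n = 3 per group. On simulated counts 97.5% of 2-fold changes in RKO (14280 genes), 93.5% in H-929 (14469 genes) and 89% in the average (18528 genes) were recovered.

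The members and gene lists were chosen with earlier results of these data known. All members were named in every line; of the lists, all further metallothioneins, genes called in 1 direction in at least 5 lines, and the largest average of each list. The planned comparison of metallothionein proteins was replaced by coding sequences (GENCODE 29), whose exon lengths also gave the per-kilobase levels. DESeq2 1.42.0 and limma 3.58.1 served as alternatives, with other scalings, filters and libraries left out.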

Additional observations from a re-analysis of the deposited data

Results flagged for a closer look

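The response to carfilzomib of 9 gene and line pairs differed between the lines of 1 tumour type by edgeR's test of the difference in the joint fit, with p-values adjusted over all genes of a contrast. The lines of a pair were called in opposite directions for MT2A in the pancreatic lines and for SLC30A1 in the lung and the myeloma lines, 3 of the 9. Of the pairs compared, 7 of the 16 gave no call, among them the 4 of the colon lines.

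In the lung lines, H-1299 minus H-23 was -1.75 for MT2A (edgeR adjusted p = 2.07e-11), -1.17 for MT1X (edgeR adjusted p = 1.52e-05), -0.94 for SLC30A1 (edgeR adjusted p = 8.62e-09) and 0.53 for MTF1 (edgeR adjusted p = 0.000266) on the log2 scale. In H-23 none of these 4 genes moved by more than 0.23.

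In the pancreatic lines, CAPAN-2 minus PANC-1 was -0.64 for MT2A (edgeR adjusted p = 0.00226) and 0.53 for MTF1 (edgeR adjusted p = 0.000576). MT2A was called lower in CAPAN-2 and higher in PANC-1, while MT1X was called higher in both.

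In the myeloma lines, H-929 minus RPMI was 1.54 for MT1X (edgeR adjusted p = 2.91e-07), 1.66 for MT2A (edgeR adjusted p = 0.0144) and 1.15 for SLC30A1 (edgeR adjusted p = 7.28e-12). The MT2A difference rests on 10 to 79 counts per library. Groups of 3 libraries are below the size at which a single outlying library was looked for by its gap to the others.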

How the results depend on the processing

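No called result reversed under the alternatives run. Of the refitted values of single members in single lines, 578 stayed on their side of the threshold, called or not, 42 lost a call and 9 gained one. The test that lines differ kept its call in 32 refits, taken over MT2A, MT1X, MTF1 and SLC30A1 together. With the contrast from the joint fit, 1 member was called higher in RKO, 1 higher in RPMI and 1 lower in H-23. With the Wald test of DESeq2, 1 was called higher in RKO, 1 higher in RPMI and 1 lower in RPMI. A mean of at least 50 counts left 1 lower in RPMI. The joint fit lost MT2A in RKO and H-23 (edgeR adjusted p = 0.191 and 0.215) and MTF1 in RPMI (edgeR adjusted p = 0.0992). It also lost MT1E in PANC-1 and CAPAN-2 (edgeR adjusted p = 0.394 and 0.0603) and MT1F in H-23 (edgeR adjusted p = 0.0643). The Wald test lost MT2A in RKO (DESeq2 adjusted p = 0.0583) and MT1E in PANC-1 (DESeq2 adjusted p = 0.0665). It also lost MTF1 in H-929 and RPMI (DESeq2 adjusted p = 0.0538 and 0.0546) and MT1F in H-23 and RPMI. MT2A in H-929 was called with no filter (1.13, edgeR adjusted p = 0.0471) and in the joint fit (1.02, edgeR adjusted p = 0.0309), and SLC30A1 in DLD-1 under library totals (0.17, edgeR adjusted p = 0.034). With lines as units in limma, the average of MT1X was 0.51 (adjusted p = 0.277) and that of MTF1 0.21 (adjusted p = 0.246). Leaving out 1 library at a time, members called higher ranged from 1 to 2 in RKO and from 0 to 2 in RPMI, and members called lower from 1 to 3 in H-23, from 1 to 3 in CAPAN-2 and from 1 to 2 in RPMI. Leaving out lines or replicate numbers, the average of MT2A ranged from -0.27 to 0.16 and that of SLC30A1 from -0.16 to 0.07. It was -0.22 for MT2A without DLD-1, -0.27 without H-929, and -0.16 for SLC30A1 without H-929. In the 250 bases before the RefSeq start alone, the SLC30A1 promoter held 1 match. Of the 5 genes most like MT2A, 1 was shared under Spearman correlation. Beyond fewer samples or genes, the cause of these changes was not tested.

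The replicate numbers did not pair the samples: correlations of same-numbered deviations ran from -0.0628 to 0.0486, and every library correlated best with its own number in H-23 and PANC-1 alone. With the replicate number as a block, the pairing changed 1 call, MT1E in RKO (0.26, edgeR adjusted p = 0.0126), which was also called with no filter (0.25, edgeR adjusted p = 0.00788). Depth limits MT1G, MT1M and MT1A most, since in most lines they held too few counts to test.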
